A study of Homo sapiens with 8 samples.

Results

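The genes described are 41 genes of the lysosome: cathepsins and other acid hydrolases, their activators, membrane proteins, proton pump subunits and the transcription factors that govern the compartment. They were chosen by symbol, and 40 of the 41 were measured among 23562 rows of the count table. CD68 was not analysed here. The cells were of the established line OCI-AML5, from a human acute myeloid leukemia, and in all 8 libraries they carried lentiCRISPRv2, a lentiviral vector with Cas9 and a guide RNA. The control group was 4 libraries with non-specific guides (sgControl 1 to 4) and the other group was 4 libraries with guides against CEBPD, the gene of the transcription factor C/EBP delta (sgCEBPD 1 to 4). Each library was a different guide, and no label says that cultures were grown separately.

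The lysosome is the acidic compartment in which cells digest proteins, glycans and lipids taken up from outside or delivered by autophagy. Its enzymes are made in the endoplasmic reticulum, tagged with mannose 6-phosphate and kept active by a proton pump, the V-ATPase. TFEB, TFE3 and MITF, related helix-loop-helix factors, bind E-box motifs in many lysosomal promoters (the CLEAR network), and they are held in the cytoplasm when the kinase mTORC1 is active. Monocytes and macrophages are rich in lysosomes, and several cathepsins increase as such cells mature.

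Library totals lay between 10217751 and 11521209 counts. CEBPD itself stood at 202 to 216 CPM (counts scaled to the effective library size after TMM normalisation) in the controls and at 107, 209, 195 and 164 CPM in sgCEBPD 1 to 4. Since small insertions and deletions need not remove a transcript, these levels are no check of the guides. Among 12374 genes with a mean of at least 2 CPM, 72.4% lay outside the range of the 7 other libraries in sgCEBPD 3, which thus differed from the rest. The groups were compared with all 8 libraries and with 7, without sgCEBPD 3. The 7-library comparison was chosen with earlier results of these data known, in which sgCEBPD 3 stood apart. Its p-values take no account of that choice. The myeloid genes PTPRC, CD33, SPI1 and LYN were present in all libraries, while ANPEP and CSF2RA were near 0. The summed level of 25 measured monocyte and macrophage markers was 1656 CPM in sgCEBPD 3, against 780 to 852 CPM in the controls and 748 to 972 CPM in sgCEBPD 1, 2 and 4. There 22 of the 25 lay above all other libraries and 1, CCR2, lay below them (27.61 against 78.43 to 121.8 CPM). LYZ (80.86 against 36.97 to 189.5 CPM) and APOE lay within their range. Of all genes with a mean of at least 2 CPM, 36.5% lay above and 35.8% below. Only 17 of the 25 had a mean of at least 1 CPM, and some rested on few counts (C1QA on 14 and FCN1 on 20 in sgCEBPD 3). The mast cell tryptases TPSAB1 and TPSB2 stood at 288 and 207 CPM in sgCEBPD 3 and at no more than 2.52 and 3.56 CPM elsewhere. CD14 stood at 41.0 CPM there (at most 2.74 CPM elsewhere), while APOE (0.59 CPM) and VSIG4 (1.08 CPM), markers of mature macrophages, were near 0. Of 6 proliferation genes, 5 were below all other libraries in sgCEBPD 3 (35.8% of all genes). The other, CCNB1, was above them (158.3 against 130.2 to 150.1 CPM). Of 8 measured progenitor genes, 4 were below (CD34, ERG, FLT3 and KIT; KIT at 2.46 against 18.1 to 51.9 CPM) and 3 above (GATA2, MEIS1 and SOX4). Neutrophil granule markers summed to 192 CPM there, of which MMP9 was 138 CPM, against 29.6 to 80.0 CPM elsewhere. Markers of other lineages summed to 590.2 CPM against 95.8 to 216 CPM. Most of that sum in sgCEBPD 3 was PECAM1 at 384.9 CPM and NCAM1 at 150.9 CPM. Both were present in every other library, at 82.98 to 139.4 CPM and 7.601 to 76.34 CPM. CD3D stood at 52.7 CPM against at most 0.459 CPM. The part of all these differences in the lysosomal results was not tested. In such bulk samples, more cells of a kind and more RNA per cell cannot be told apart.

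Promoter sequences were read for 29 of the 41 genes (RefSeq, GRCh38.p14; 250 bases before to 50 after the start). The genes without an entry were ASAH1, ATP6V0D2, ATP6V1H, CTSB, CTSK, CTSO, CTSS, CTSW, HEXA, LAMP2, LGMN and PSAP. The E-box CACGTG, which reads the same on both strands, was found in 9 of the 29 genes (31.0%), against 8.77% of 27305 genes in the table. The longer TCACGTG, searched on both strands and overlapping the E-box, was in 8 (27.6%, against 4.49%). The M-box TCATGTG, the site through which MITF is known to act in pigment cells, searched on both strands, was in 6 (20.7%, against 3.59%). The letters TTGCGCA, most of a palindromic C/EBP site, were in 0 of 29 (2.33% of all genes), which says only that they were absent from these windows. Per promoter, the E-box was in 21.4% of 42 member promoters and 7.26% of 35116, and the member promoters were richer in G and C (median 67.5% against 58.7%). A match is a description of letters and not a bound site.

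LAMP1 and MCOLN1 are shown because they carry repeated E-boxes and lay within the range of the other libraries in sgCEBPD 3. The 250 bases before the start of LAMP1 (chr13:113296989-113297238, GRCh38.p14, plus strand) hold 5 E-boxes, and those of MCOLN1 (chr19:7522374-7522623, plus strand) hold 2, with matches in capitals.
LAMP1: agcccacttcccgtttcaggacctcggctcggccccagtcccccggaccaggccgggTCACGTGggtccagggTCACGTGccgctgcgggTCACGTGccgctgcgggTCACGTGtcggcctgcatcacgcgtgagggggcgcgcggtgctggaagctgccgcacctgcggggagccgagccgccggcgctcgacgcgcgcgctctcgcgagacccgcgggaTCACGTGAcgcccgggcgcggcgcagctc
MCOLN1: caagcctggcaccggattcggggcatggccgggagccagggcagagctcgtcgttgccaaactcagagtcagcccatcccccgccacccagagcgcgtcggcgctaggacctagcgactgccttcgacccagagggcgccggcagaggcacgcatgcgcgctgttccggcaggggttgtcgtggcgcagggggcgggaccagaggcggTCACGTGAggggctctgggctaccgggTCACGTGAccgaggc

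GPNMB and TPP1 are shown because they carry paired M-boxes, in capitals with 10 bases on either side, and were high in sgCEBPD 3. Both use the RefSeq start, which for both lies inside the longer GENCODE gene. Of the 250 bases before it, 212 for GPNMB and 63 for TPP1 are annotated exon, and those of TPP1 hold both its sites. For the other genes with an M-box the figure is 250 (CTSA), 216 (GRN), 211 (CD63) and 94 (SCARB2). GRN also carries 2 M-boxes, not shown, and was only just above the other libraries in sgCEBPD 3 (198.3 against 142.9 to 195 CPM). The GPNMB sites start 123 and 62 bases before the start (chr7:23246642-23246668 and chr7:23246703-23246729, plus strand). The TPP1 sites start 21 and 8 bases before the start (chr11:6619427-6619453 and chr11:6619414-6619440, minus strand), and their windows overlap.
GPNMB first site: gagtcataagCACATGAgttgtaagag
GPNMB second site: ttaataccatCACATGAtcctccccga
TPP1 first site: aatatagagcTCATGTGatccgtcaca
TPP1 second site: tgtgatccgtCACATGAcagcagatcc

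**Figure D1:**
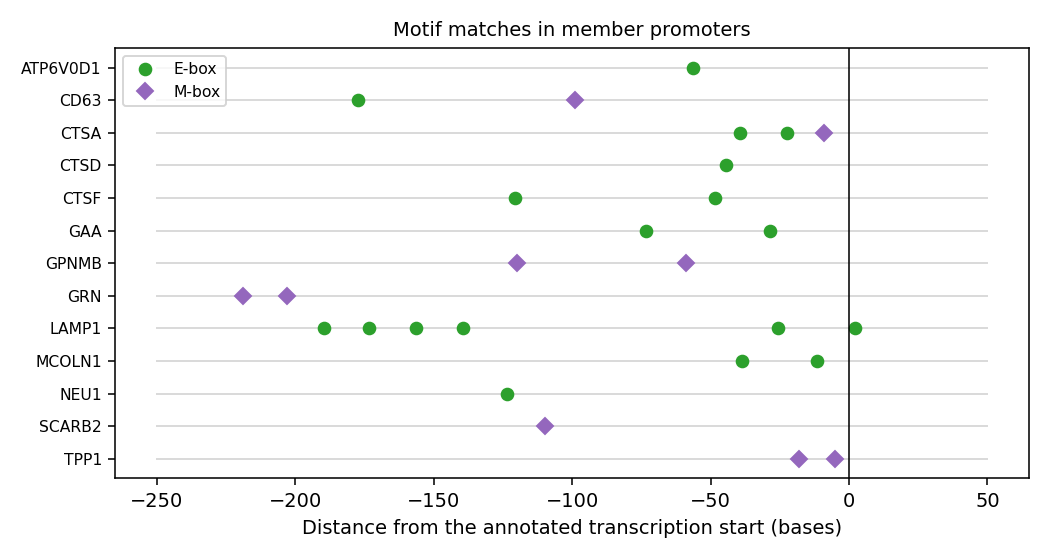
Matches to the E-box (green circles) and the M-box (purple diamonds) in the promoters of the 13 member genes that hold one, by distance in bases from the annotated transcription start. LAMP1 has the most matches, 6 E-boxes over the window drawn here, and GPNMB, GRN, SCARB2 and TPP1 have M-boxes only.

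In control cells the lysosomal genes differed widely in level. Scaled to the summed length of annotated exons (CPM per kilobase, GENCODE 29), the highest levels were those of CTSZ, a cysteine carboxypeptidase, at 188 and PSAP, the precursor of the saposins that present lipids to hydrolases, at 139. LAPTM5, a lysosomal membrane protein of blood cells, followed at 90.8, MAN2B1 (lysosomal alpha-mannosidase) at 77.6 and LAMP1, a main glycoprotein of the lysosomal membrane, at 66.1. At the other end, LGMN (legumain, an asparagine-specific protease) and ATP6V0D2, a V-ATPase subunit known from osteoclasts and macrophages, had at most 3 counts in any control and were not tested. CTSL, at 0.689 CPM per kilobase, was the lowest of the 38 members that passed the filter on low counts. These levels used all annotated exons, so genes with long or numerous transcripts are understated.

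**Figure D2:**
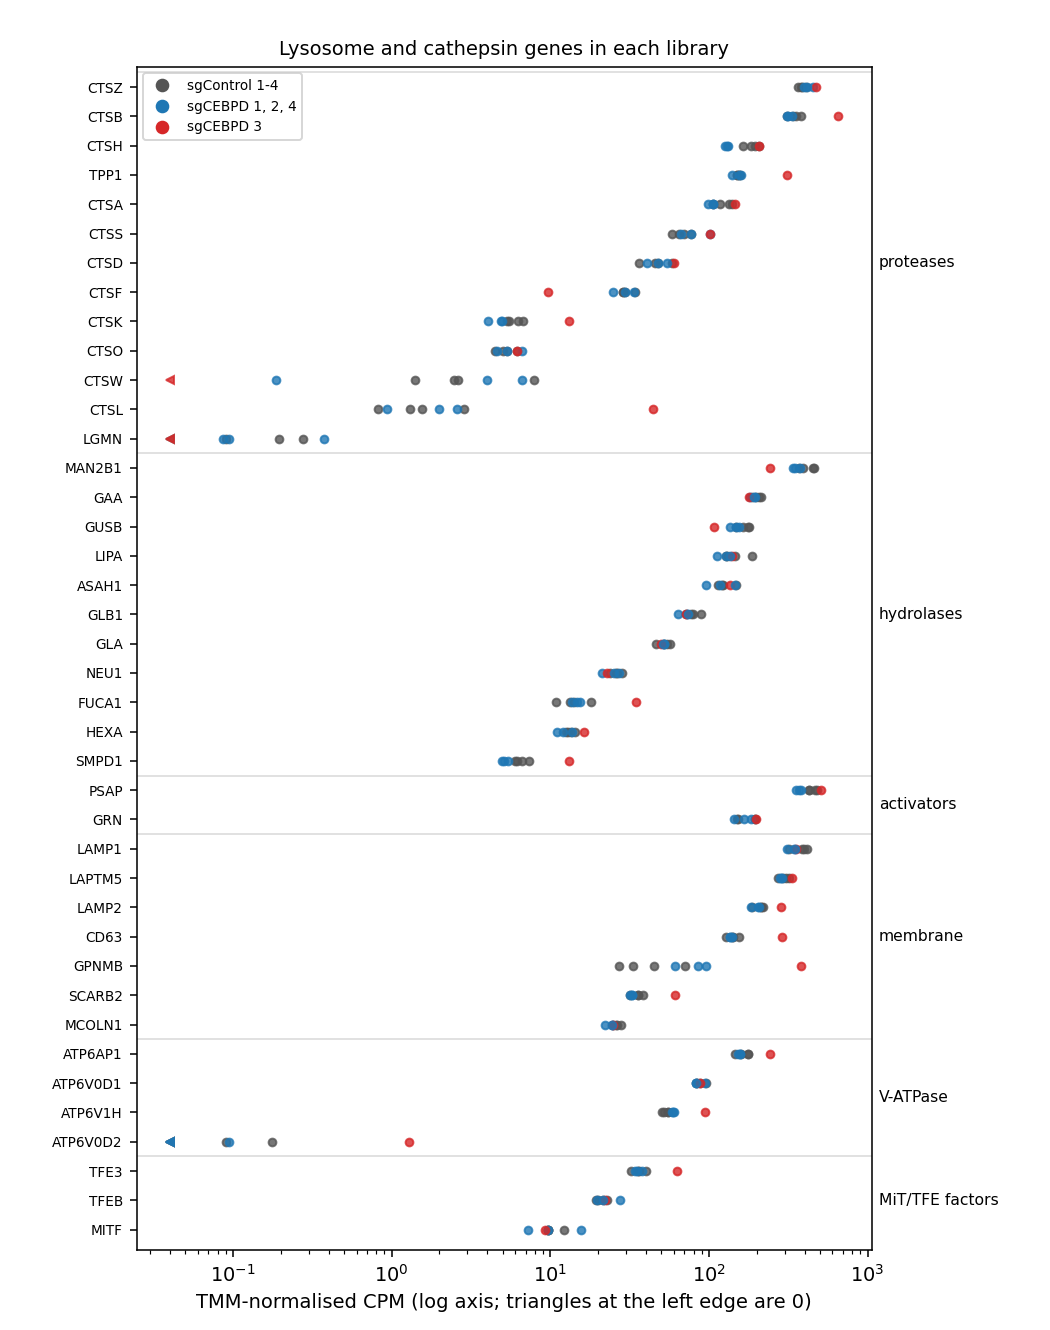
TMM-normalised CPM of the 40 measured genes in each of the 8 libraries, on a log axis and grouped by role (triangles are 0). For most genes the controls (grey) and sgCEBPD 1, 2 and 4 (blue) lie close together, and sgCEBPD 3 (red) stands off to the right for CTSL, GPNMB, CTSB, TPP1 and CD63 and to the left for CTSF and CTSW.

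With all 8 libraries no lysosomal gene passed the edgeR quasi-likelihood test in the comparison of sgCEBPD with sgControl. Of the 38 tested members 0 were called, where 0.0795% of all 13838 genes tested were called (0.00723% higher and 0.0723% lower). DESeq2 also called 0 and limma-voom with library quality weights called 2, CTSH and PSAP. At an unadjusted p under 0.05 there were 7 members, 5 higher and 2 lower, beside 11.4% of all genes (6.55% higher and 4.83% lower). Negative log2 fold changes were seen in 18 of 38 members and 49.9% of all genes. The median log2 fold change was 0.01 over the members and 0.00 over all genes. The lowest adjusted p was 0.345, for GPNMB. The values of 2 members did not overlap between the groups (9.59% of all genes, 4.96% higher and 4.62% lower): ATP6V1H was higher and MCOLN1, the lysosomal calcium channel, was lower (21.99 to 24.66 against 24.8 to 27.72 CPM, edgeR adjusted p = 0.531 with 8 libraries and 0.404 with 7). MCOLN1 was named after its values were seen.

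Without sgCEBPD 3, 2 of the 38 tested members fell and none rose: the aminopeptidase cathepsin H (CTSH) and prosaposin (PSAP). Over all 14047 genes tested, 2.01% were called, 0.705% higher and 1.31% lower. Negative log2 fold changes were seen in 27 of 38 members (49.7% of all genes), with a median of -0.07 over the members and 0.00 over all genes. At an unadjusted p under 0.05 there were 7 members, 2 higher and 5 lower (15.5% of all genes, 7.3% higher and 8.16% lower). The groups did not overlap for 7 members, 1 higher (ATP6V1H) and 6 lower (CTSA, CTSH, CTSK, MCOLN1, PSAP and SMPD1), beside 14.4% of all genes, 6.89% higher and 7.5% lower.

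CTSH, which trims peptides from their amino end and lies on chromosome 15 from 78921058 to 78949574 (GRCh38, minus strand), stood at 195, 185, 164 and 205 CPM in sgControl 1 to 4. It stood at 126, 129 and 132 CPM in sgCEBPD 1, 2 and 4 and at 206 CPM in sgCEBPD 3. The first 3 of these were below every control, and sgCEBPD 3 was just above the highest control. The means were 187 ± 17.4 CPM (SD, n = 4) and 129 ± 3.25 CPM (SD, n = 3). On the log2 scale CTSH fell by 0.54 (SE 0.07, edgeR adjusted p = 0.00635). With all 8 libraries the log2 fold change was -0.34 (edgeR adjusted p = 0.466).

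PSAP, on chromosome 10 from 71816298 to 71851375 (minus strand), stood at 478, 427, 429 and 468 CPM in the controls. In sgCEBPD 1, 2 and 4 it stood at 369, 355 and 382 CPM, all below the controls, and in sgCEBPD 3 at 505 CPM, above them. The means were 450.5 ± 26.2 CPM (SD, n = 4) and 369 ± 13.9 CPM (SD, n = 3). On the log2 scale PSAP fell by 0.29 (SE 0.05, edgeR adjusted p = 0.024). With all 8 libraries the log2 fold change was -0.16 (edgeR adjusted p = 0.585). The PSAP call was lost without sgControl 1, sgControl 4, sgCEBPD 1 or sgCEBPD 2 (adjusted p = 0.075, 0.0645, 0.0721 and 0.0713 in edgeR), and the number of members called was then 1.

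**Figure D3:**
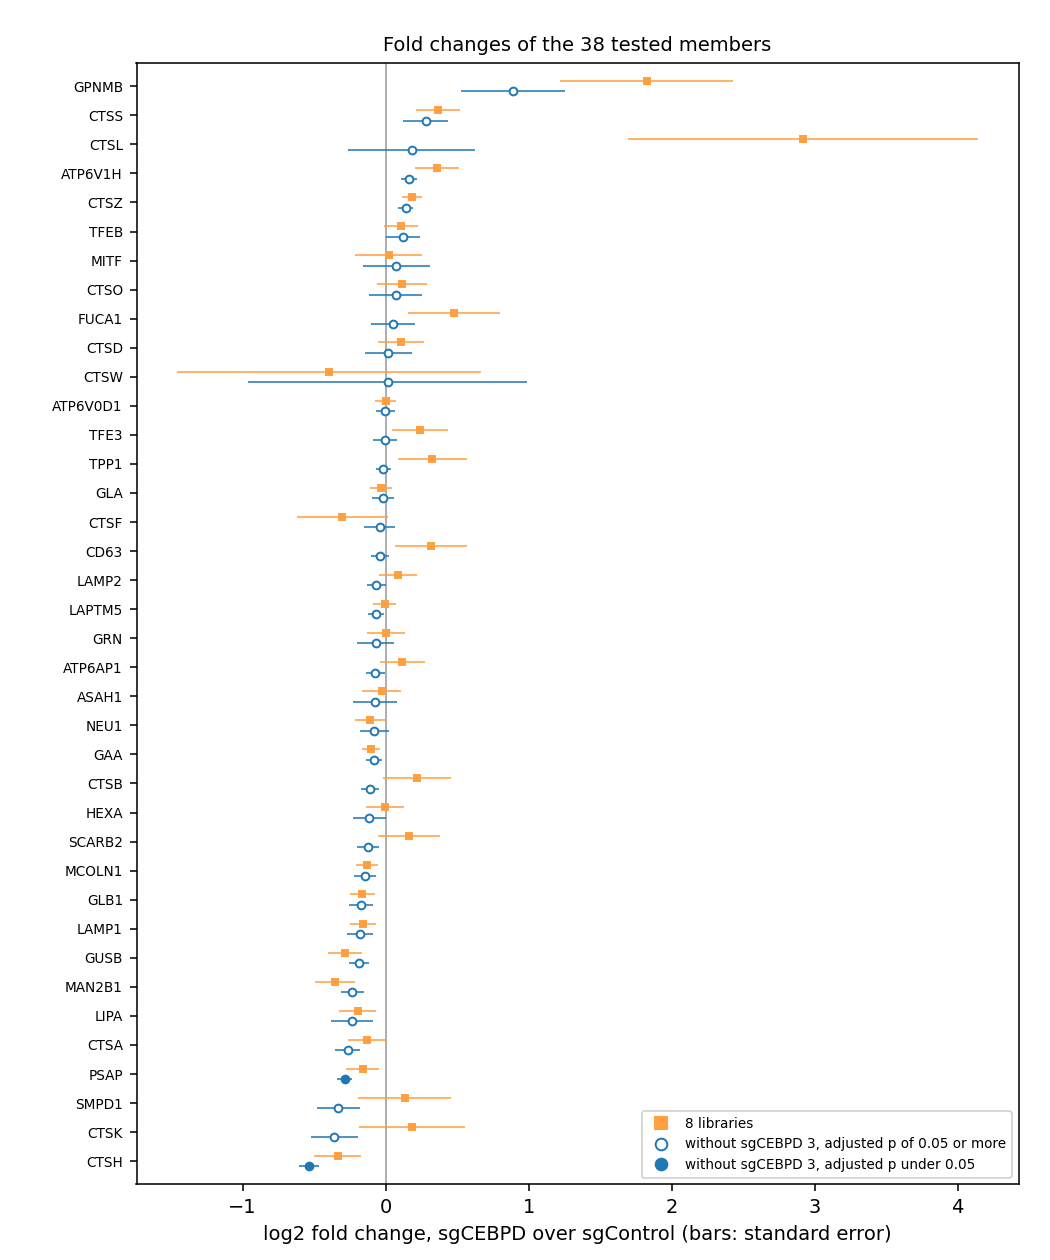
Log2 fold changes of sgCEBPD over sgControl for the 38 tested members, with bars of 1 standard error, for 8 libraries (orange squares) and without sgCEBPD 3 (blue circles, filled at an adjusted p under 0.05). CTSH and PSAP are the filled circles, and the squares lie to the right of the circles for CTSL, GPNMB, TPP1, CD63 and CTSB.

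Among the other member cathepsins and proteases none passed in either comparison. Cathepsin G (CTSG), which is not a member, did and is described with the wider pathway. CTSA, the protective protein that stabilises beta-galactosidase and neuraminidase, stood at 134, 107, 118 and 139 CPM in the controls and at 106, 98.8 and 105 CPM in sgCEBPD 1, 2 and 4, just below them (7 libraries, log2 fold change -0.27, edgeR adjusted p = 0.179). In sgCEBPD 3 it stood at 145 CPM, and with all 8 libraries the log2 fold change was -0.13 (edgeR adjusted p = 0.703). Its annotated exons overlap 3 genes on the other strand, NEURL2 and PLTP among them, over 1668 bases together. Strand use in counting is not given, so its reads are not certain. Reads of other members with overlapping exons are likewise uncertain, such as HEXA (2058 bases), CTSD (1647), MAN2B1 (1139) and TPP1 (941). CTSK, the collagen-degrading cathepsin of osteoclasts, stood at 6.3, 6.69, 5.45 and 5.32 CPM in the controls and at 4.87, 4.07 and 4.92 CPM in sgCEBPD 1, 2 and 4, again without overlap, and at 13.2 CPM in sgCEBPD 3. The sign of its log2 fold change turned with that library: -0.36 with 7 libraries (edgeR adjusted p = 0.334) and 0.18 with 8 (edgeR adjusted p = 0.838).

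CTSS, the cathepsin that trims invariant chain in antigen-presenting cells, stood at 70.0, 58.1, 64.8 and 76.5 CPM in the controls and at 76.7, 102, 101 and 66.8 CPM in sgCEBPD 1 to 4. Its groups overlapped because sgCEBPD 4 lay among the controls (8 libraries, log2 fold change 0.36, edgeR adjusted p = 0.431; 7 libraries, 0.28 and 0.461). CTSZ stood at 387, 381, 362 and 406 CPM in the controls and at 398, 453, 474 and 417 CPM in sgCEBPD 1 to 4 (8 libraries, log2 fold change 0.18, edgeR adjusted p = 0.41; 7 libraries, 0.14 and 0.251). The lowest sgCEBPD value was within the control range.

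CTSL, a broad endopeptidase of macrophage lysosomes, was nearly silent outside sgCEBPD 3. It stood at 1.31, 1.55, 0.818 and 2.85 CPM in the controls, at 0.936, 1.99 and 2.59 CPM in sgCEBPD 1, 2 and 4, and at 44.1 CPM in sgCEBPD 3. That is 24.0 times the mean of the other sgCEBPD libraries, from 449 counts against 10 to 30. With 8 libraries its log2 fold change was 2.92 with SE 1.22 (edgeR adjusted p = 0.431), and without sgCEBPD 3 it was 0.18. CTSL lies on chromosome 9 from 87725519 to 87731393 (plus strand) and has 6 annotated pseudogenes, so reads shared with them are uncertain.

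CTSF and CTSW, both cysteine cathepsins, were the members that were over 2-fold lower in sgCEBPD 3. CTSF stood at 28.8, 29.65, 28.6 and 34.0 CPM in the controls, at 29.7, 24.8 and 33.7 CPM in sgCEBPD 1, 2 and 4 and at 9.73 CPM in sgCEBPD 3. CTSW, known from cytotoxic lymphocytes, stood at 1.4, 7.85, 2.63 and 2.48 CPM in the controls and at 0.187, 6.62 and 3.97 CPM in sgCEBPD 1, 2 and 4. It had 0 counts in sgCEBPD 3, which allows a level of up to 0.295 CPM (3 counts, counting error only). CTSW varied between guides in both groups, and sgCEBPD 1 had only 2 counts. CTSD, the main aspartic protease of lysosomes, stood at 36.4 to 58.5 CPM in the other 7 libraries and at 59.9 CPM in sgCEBPD 3. CTSO, a little-studied cysteine cathepsin, stood at 4.46 to 6.62 CPM, with sgCEBPD 3 within that range.

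Of the 11 hydrolases of glycans and lipids none passed in either comparison. Without sgCEBPD 3, 10 of 11 had negative log2 fold changes, with a median of -0.11. MAN2B1 stood at 459.7, 369.9, 389 and 450.1 CPM in the controls and at 376, 337, 243 and 350.3 CPM in sgCEBPD 1 to 4 (8 libraries, log2 fold change -0.35 ± 0.14 SE, edgeR adjusted p = 0.411). Only sgCEBPD 1 lay within the control range, and sgCEBPD 3 was lowest. Without it the log2 fold change was -0.24 (edgeR adjusted p = 0.207). GUSB, the beta-glucuronidase, stood at 179, 148, 164 and 175 CPM in the controls and at 147, 136, 108 and 156 CPM in sgCEBPD 1 to 4 (8 libraries, log2 fold change -0.28, edgeR adjusted p = 0.428). It also was lowest in sgCEBPD 3, without which the log2 fold change was -0.19 (edgeR adjusted p = 0.241), and it has 10 annotated pseudogenes.

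SMPD1, the acid sphingomyelinase, stood at 6.12, 6.59, 6 and 7.34 CPM in the controls and at 4.96, 5.11 and 5.44 CPM in sgCEBPD 1, 2 and 4, all lower, and at 13.1 CPM in sgCEBPD 3. Its log2 fold change was -0.33 with 7 libraries (edgeR adjusted p = 0.326) and 0.13 with 8 (edgeR adjusted p = 0.87). FUCA1, the alpha-fucosidase, stood at 17.9, 14.1, 10.9 and 13.3 CPM in the controls, at 14.7, 13.7 and 15.3 CPM in sgCEBPD 1, 2 and 4 and at 34.6 CPM in sgCEBPD 3. Both were over 2-fold higher in sgCEBPD 3 than in the other sgCEBPD libraries. The other 7 hydrolases had log2 ratios between -0.12 and 0.39 there. They were GAA (glycogen), GLA and GLB1 (terminal galactose), HEXA (gangliosides), LIPA (cholesteryl esters), NEU1 (sialic acid) and ASAH1 (ceramide). GAA was just below the other libraries in sgCEBPD 3 (178.8 against 180.8 to 212 CPM), HEXA just above (16.2 against 11.1 to 14.2 CPM), and the remaining 5 within their range. GRN, progranulin, which binds prosaposin on its way to the lysosome, stood at 143 to 195 CPM in the other 7 libraries and at 198 CPM in sgCEBPD 3.

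Among membrane proteins the largest difference was in GPNMB. GPNMB, a glycoprotein of melanosomes and macrophage lysosomes and a known MITF and TFE3 target, lies on chromosome 7 from 23235967 to 23275108 (plus strand). It stood at 33, 70.2, 27.1 and 45.2 CPM in the controls and at 61.2, 96.2, 378 and 85.2 CPM in sgCEBPD 1 to 4. Only sgControl 2 reached into the range of the sgCEBPD libraries. With 8 libraries the log2 fold change was 1.82 with SE 0.61 (edgeR adjusted p = 0.345). Without sgCEBPD 3 the means were 43.9 ± 19.1 CPM (SD, n = 4) and 80.8 ± 17.9 CPM (SD, n = 3), which differed by 0.89 on the log2 scale (SE 0.36, edgeR adjusted p = 0.334). 

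CD63, a tetraspanin of late endosomes, stood at 139, 128, 141 and 155 CPM in the controls, at 140, 135 and 135 CPM in sgCEBPD 1, 2 and 4 and at 290 CPM in sgCEBPD 3. The first 7 values lay close together, and sgCEBPD 3 was 2.12 times the mean of the other sgCEBPD libraries. SCARB2, the receptor that carries glucocerebrosidase to lysosomes, followed the same order, with 31.6 to 38.3 CPM in the other 7 libraries and 61.2 CPM in sgCEBPD 3. LAMP2, the second main membrane glycoprotein, stood at 285 CPM in sgCEBPD 3 against 183 to 220.4 CPM, and LAPTM5 at 332 CPM against 270.5 to 320.1 CPM. LAMP1 (309.5 to 414 CPM over all 8 libraries) and MCOLN1 (22.0 to 27.7 CPM) did not leave the range of the other 7 libraries in sgCEBPD 3.

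Of the proton pump members, ATP6V1H, a regulatory subunit of its cytosolic sector, stood at 50.3, 51.7, 55.1 and 55 CPM in the controls and at 59.7, 59.8, 93.8 and 58.6 CPM in sgCEBPD 1 to 4. Every sgCEBPD library was above every control. The difference did not pass with 8 libraries (log2 fold change 0.36 ± 0.16 SE, edgeR adjusted p = 0.438) or without sgCEBPD 3 (log2 fold change 0.16 ± 0.06 SE, edgeR adjusted p = 0.205). ATP6AP1, an accessory subunit, stood at 243 CPM in sgCEBPD 3 against 146 to 176 CPM in the others. ATP6V0D1, a subunit of the membrane sector, stood between 82.7 and 95.3 CPM in all libraries. ATP6V0D2 had 13 counts in sgCEBPD 3 and 0 to 2 in each of the others.

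The 3 transcription factors did not pass in either comparison. TFEB stood at 21.6, 22.8, 20.1 and 19.5 CPM in the controls and at 19.6, 27.5, 22 and 21.3 CPM in sgCEBPD 1 to 4, with overlap. TFE3 stood at 36, 35.6, 32.2 and 40.1 CPM in the controls, at 34.2, 35 and 38 CPM in sgCEBPD 1, 2 and 4 and at 62.5 CPM in sgCEBPD 3. MITF stood at 12.2, 9.69, 9.63 and 9.64 CPM in the controls and at 9.64, 7.19, 9.24 and 15.55 CPM in sgCEBPD 1 to 4, where sgCEBPD 4 was the highest. Of the 3, TFE3 alone lay outside the other 7 libraries in sgCEBPD 3. Transcript levels do not show where these factors are in the cell.

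In sgCEBPD 3, which is 1 library and gives no test, the lysosomal genes lay mostly high. Of the 38 members with a mean of at least 2 CPM, 21 (55.3%) were above all 7 other libraries, against 36.5% of all genes, and 5 (13.2%) were below them, against 35.8%. That mean, for members and for all genes, included sgCEBPD 3. CTSL (mean 1.63 CPM in the controls and 1.84 CPM in sgCEBPD 1, 2 and 4) reached it only through sgCEBPD 3. Its place among the genes counted as higher there was thus partly fixed by the filter. Against the mean of sgCEBPD 1, 2 and 4, 8 members (21.1%) were over 2-fold higher, against 7.63% of genes, and 2 (5.26%) were over 2-fold lower, against 6.19%. The median log2 ratio was 0.29 over the members and 0.00 over all genes. By class, the median was 0.41 for proteases, 0.53 for membrane proteins, 0.64 for the 3 proton pump subunits, 0.36 for the 2 activators, 0.03 for hydrolases of glycans and lipids and -0.05 for the 3 transcription factors. The 40 genes together held 0.569% of the counts in sgCEBPD 3, 0.445% to 0.505% in the controls and 0.433% to 0.449% in sgCEBPD 1, 2 and 4.

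The 8 genes over 2-fold higher were CTSL, GPNMB, CTSK, SMPD1, FUCA1, CD63, TPP1 and CTSB. TPP1, the tripeptidyl peptidase lost in a childhood neuronal storage disease, stood at 156, 149.5, 151 and 154 CPM in the controls and at 154, 159.6 and 139 CPM in sgCEBPD 1, 2 and 4. It stood at 312 CPM in sgCEBPD 3, 2.07 times the mean of the other sgCEBPD libraries. CTSB, a cysteine cathepsin with endopeptidase and carboxypeptidase activity, stood at 381, 309.8, 340.0 and 353 CPM in the controls, at 311, 316 and 333 CPM in sgCEBPD 1, 2 and 4 and at 651 CPM in sgCEBPD 3. Both were steady over the other 7 libraries, and both were named after their values were seen.

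Set beside the promoter matches, all 6 member genes with an M-box (CD63, CTSA, GPNMB, GRN, SCARB2 and TPP1) were above the other 7 libraries in sgCEBPD 3, with a median log2 ratio of 0.98. Among the 219 other genes with an M-box and a mean of at least 2 CPM, 42.9% were above and 30.6% below, with a median of 0.06, beside 36.5% and 35.8% of all genes. Of the 9 with an E-box, 3 were above and 2 below, with a median of 0.06, and of 15 with neither, 8 were above and 2 below, with a median of 0.16. Over all 1203 genes with an E-box and a mean of at least 2 CPM, 34.5% were above and 42.1% below. Of the 9347 genes at that level with a promoter in the table, 37.6% were above and 36.2% below. These groups of members are small and share CD63 and CTSA, and CD63 has 8 promoters in the table, of which 1 holds the matches. Without sgCEBPD 3, the median log2 fold change of sgCEBPD over sgControl was -0.06 for genes with an M-box and -0.08 for those with an E-box.

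**Figure D4:**
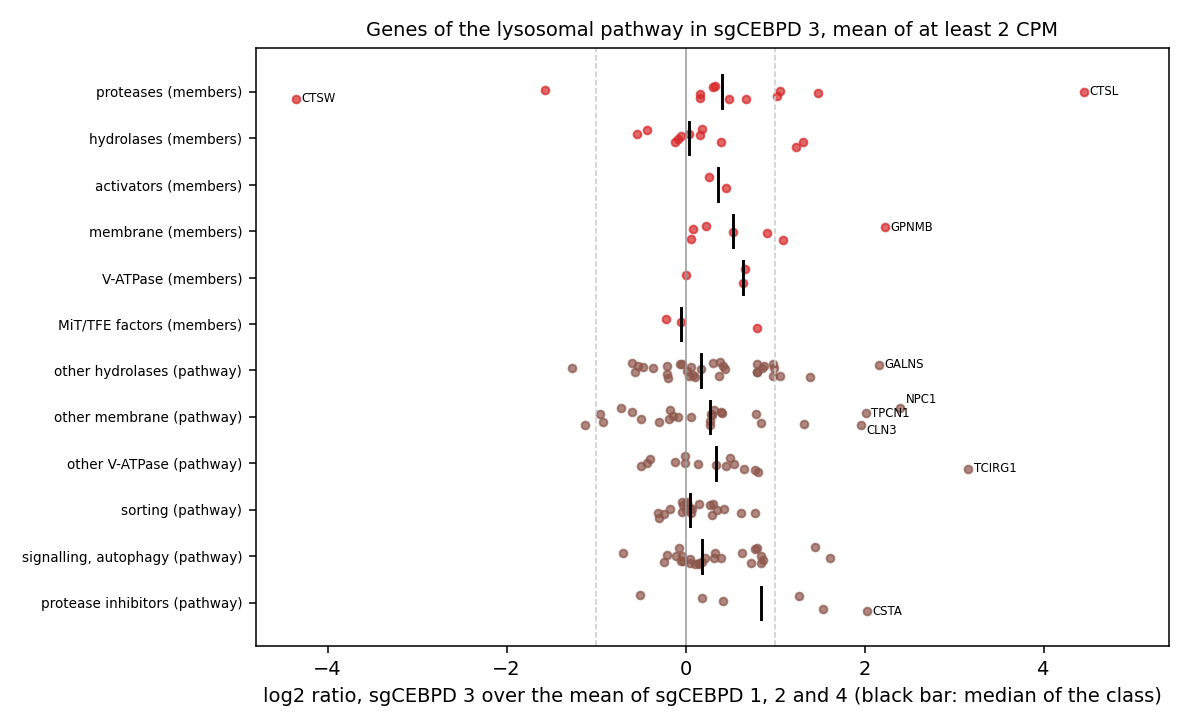
Log2 ratio of sgCEBPD 3 to the mean of sgCEBPD 1, 2 and 4 for members (red) and for other genes of the pathway (brown) with a mean of at least 2 CPM, by class, with black bars at class medians and dashed lines at 2-fold. Class medians lie between -0.05 and 0.84, and CTSL, TCIRG1, NPC1 and GPNMB are farthest to the right.

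The wider pathway was read from 145 other genes for hydrolases, transporters, proton pump subunits, sorting, mTORC1 signalling and autophagy, and protease inhibitors. With 8 libraries, 1 of 131 tested fell and none rose (0.0795% of all genes called). Without sgCEBPD 3, 3 of 132 fell and none rose (2.01% of all genes called). CTSG (cathepsin G), a serine protease of neutrophil granules, fell in both. Its mean was 31.3 CPM in the controls and 6.37 CPM in sgCEBPD 1 to 4 (8 libraries, log2 fold change -2.29, edgeR adjusted p = 0.01835; 7 libraries, -2.17 and 0.00635). Its 8-library call was lost, leaving 0, without sgControl 1, sgControl 3, sgControl 4 or sgCEBPD 2.

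The other 2 were lysosomal transporters. NPC1, which exports cholesterol from the lysosome, stood at 163, 133, 152 and 151 CPM in the controls and at 113, 121 and 119 CPM in sgCEBPD 1, 2 and 4 (log2 fold change -0.35 ± 0.07 SE, edgeR adjusted p = 0.0299 without sgCEBPD 3). In sgCEBPD 3 it stood at 619.8 CPM, 5.27 times the mean of the other sgCEBPD libraries, above every control, while the other 3 sgCEBPD libraries were below every control. SLC36A1, a proton-coupled exporter of amino acids, stood at 58.9, 49.7, 54.1 and 56.8 CPM in the controls and at 43.9, 35, 45.9 and 34.7 CPM in sgCEBPD 1 to 4. All 4 were below every control, and without sgCEBPD 3 it fell with a log2 fold change of -0.54 ± 0.10 SE (edgeR adjusted p = 0.0222), while with 8 libraries the adjusted p was 0.249. Without sgControl 1, sgControl 3 or sgControl 4 the 7-library count of 3 dropped to 1, CTSG alone, and without sgCEBPD 2 it was 2, with neither NPC1 nor SLC36A1. NPC1 was also not called without sgCEBPD 1 or sgCEBPD 4.

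**Figure D5:**
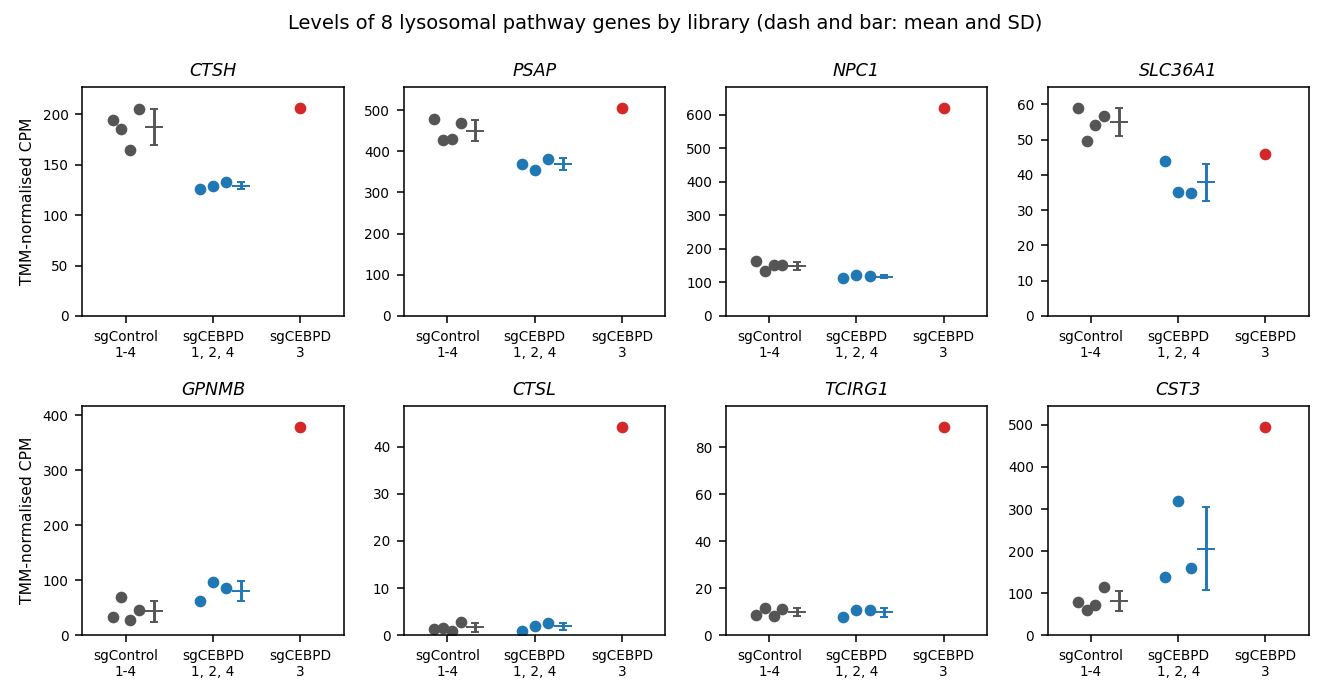
TMM-normalised CPM of 8 lysosomal pathway genes in sgControl 1 to 4 (grey), sgCEBPD 1, 2 and 4 (blue) and sgCEBPD 3 (red), with the mean and SD of the first and second sets. CTSH, PSAP and NPC1 are lower in sgCEBPD 1, 2 and 4 than in the controls and not lower in sgCEBPD 3, and GPNMB, CTSL, TCIRG1 and CST3 are highest in sgCEBPD 3.

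In sgCEBPD 3 the largest ratio of the wider pathway was in TCIRG1, the a3 subunit that targets the proton pump to lysosomes and to the osteoclast membrane. It stood at 88.5 CPM, against 7.58 to 11.7 CPM in the other 7 libraries. GALNS, a sulfatase of keratan sulfate, stood at 65.9 CPM against 12.7 to 17.7 CPM, and TPCN1, an endolysosomal cation channel, at 72.8 CPM against 10.1 to 29.6 CPM. All 3 were above every other library. On the low side, NAAA, an acid amidase, stood at 16.8 CPM against 38.7 to 44.9 CPM, LAMP5 at 58.9 CPM against 76.9 to 185 CPM, and the transporters ATP13A2, LAPTM4B and ABCA2 at 20.1, 209 and 160.4 CPM, each below the other 7. Of 127 pathway genes with a mean of at least 2 CPM, 66 (52.0%) were above the other 7 libraries and 28 (22.0%) below, beside 36.5% and 35.8% of all genes.

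Of 6 measured inhibitors of cathepsins and related proteases none passed the edgeR test, and DESeq2 called CST3. CST3 (cystatin C, a secreted inhibitor of cysteine cathepsins) stood at 78.2, 60.4, 72.3 and 115 CPM in the controls and at 139, 319, 494 and 159.8 CPM in sgCEBPD 1 to 4. All 4 sgCEBPD libraries were above every control (8 libraries, log2 fold change 1.77, edgeR adjusted p = 0.2335; 7 libraries, 1.34 and 0.196). CSTA (cystatin A) stood at 29.2, 25.6, 21.7 and 41.1 CPM in the controls and at 0.748, 4.45 and 14.8 CPM in sgCEBPD 1, 2 and 4, all lower, and at 27.6 CPM in sgCEBPD 3, within the control range (7 libraries, log2 fold change -2.12, edgeR adjusted p = 0.284; 8 libraries, -1.31 and 0.531). SERPINB1, an inhibitor of neutrophil serine proteases, stood at 448 to 495 CPM in the controls and at 264 to 388 CPM in sgCEBPD (8 libraries, log2 fold change -0.42, edgeR adjusted p = 0.295; 7 libraries, -0.47 and 0.162). CST3 and SERPINB1 were named after their values were seen.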

How the data were processed

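RNA of 8 OCI-AML5 libraries was measured by sequencing of polyadenylated RNA. The deposited table holds read counts per gene as the authors made them, without normalisation. The submitters' processing notes name HISAT2, FastQC, DESeq2 and the build hg38; the counting tool, strand setting and annotation are not given in the sources used here. Columns were matched by library name. The members, the gene lists and the comparison without sgCEBPD 3 were chosen with earlier results of these data known. The test was that of edgeR 4.0.16 under R 4.3.3 (filterByExpr, TMM, robust quasi-likelihood test, group only; Benjamini-Hochberg over all genes, threshold 0.05), with 8 libraries and without sgCEBPD 3. The standard error is the absolute log2 fold change over the square root of F. With no label on separate cultures, p-values reflect only how far these libraries spread, which may be technical. Ratios of sgCEBPD 3 used log2 CPM with a prior count of 2. DESeq2 1.42.0 and limma 3.58.1 were alternatives. Functions were tested on simulated counts.

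Values in every library were given for members past the threshold, the 8 with the lowest p in each comparison, the 8 with the largest absolute log2 ratio in sgCEBPD 3 at a mean of at least 2 CPM, and TFEB, TFE3 and MITF. Of the wider pathway, called genes and the 5 largest ratios in each direction were eligible. Positions are from GENCODE 29 (GRCh38). Alternatives were other tools, scalings and filters, each library left out and a guide-number block.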

Additional observations from a re-analysis of the deposited data

Results flagged for a closer look

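Of 38 groups of 4 values examined for the 19 members picked by the naming rules above, 11 had 1 value widely separated from the remaining 3. TPP1 and CTSB, named after their values were seen, were not among the 19. By chance about 1 in 20 groups would, here 1.9. The separated value was that of sgCEBPD 3, and high, for 10 genes: CTSH at 206.1 CPM, GPNMB at 377.9 CPM, CTSL at 44.11 CPM, ATP6V1H at 93.83 CPM, CTSA at 144.9 CPM, SMPD1 at 13.07 CPM, CTSK at 13.17 CPM, FUCA1 at 34.58 CPM, CD63 at 289.7 CPM and TFE3 at 62.49 CPM. All of these but TFE3 were listed for their ratio in sgCEBPD 3 or their p without it, so the chance rate does not apply to them. Over all 12374 genes with a mean of at least 2 CPM, sgCEBPD 3 was separated in this way from the other sgCEBPD libraries in 14.5%, and high in 9.67%. MITF in sgControl 1, at 12.15 CPM against 9.63 to 9.69 CPM in the other controls, was the 11th.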

How the results depend on the processing

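The 8-library count of members called stayed at 0 in 13 of 15 alternatives and was 2 with voom and library quality weights. With each library left out it was 0 to 2. The 7-library count of 2 was 1 to 3 with each library left out and 2 in the other alternatives, except 3 in the replicate block fit on guide number (CTSH, PSAP and GPNMB, the last with a log2 fold change of 0.75 and edgeR adjusted p = 0.015). The guide numbers do not pair the libraries: same-numbered libraries' deviations correlated at -0.081 to 0.056 over 8 libraries and 0.016 to 0.078 over 7. With the replicate block on 8 libraries 0 members and 1 pathway gene were called. CTSH was called in all 14 seven-library alternatives (adjusted p up to 0.0359). The 8-library count of the wider pathway, 1, was 5 with DESeq2, 3 with voom and library quality weights and 0 to 3 with each library left out. The 7-library count, 3, was 6 with DESeq2, 3 with the replicate block (CTSG, SLC36A1 and SORT1) and 1 to 4 with each library left out. Without sgControl 2, CTSA also passed with 7 libraries (log2 fold change -0.33, edgeR adjusted p = 0.0395). The median log2 ratio of members in sgCEBPD 3 was 0.21 with library totals and 0.29 with RLE size factors. Over all genes with a mean of at least 2 CPM the median was -0.073 and 0.0005.

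The sign changed for members that were not called. With 8 libraries and voom with library quality weights, log2 fold changes were -0.29 for SMPD1, -0.31 for CTSK and -0.017 for CD63, and MITF was at -0.0070 with library totals and -0.0311 with the replicate block. With 7 libraries CTSW was at -1.09 with voom, and with the replicate block CTSL was at -0.0653, CTSW at -0.25, FUCA1 at -0.0424 and MITF at -0.0092. With each library left out of 8, the ranges were -0.33 to 0.28 for SMPD1, -1.33 to 0.32 for CTSW, -0.36 to 0.36 for CTSK, -0.0428 to 0.42 for CD63, -0.0006 to 0.175 for TFEB, -0.0088 to 0.33 for TFE3 and -0.24 to 0.16 for MITF. Out of 7, they were -0.16 to 0.59 for CTSL, -0.75 to 0.73 for CTSW, -0.15 to 0.0697 for CTSF, -0.0528 to 0.19 for FUCA1, -0.0864 to 0.0088 for CD63, -0.0325 to 0.22 for TFEB, -0.0587 to 0.0498 for TFE3 and -0.29 to 0.30 for MITF. The cause was not tested.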
